A study of Mus musculus with 11 samples.

Results

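Potassium channel genes were followed here as a family across the ATAC-seq peaks of old and young haematopoietic stem cells (HSCs). The members were chosen by name: every peak whose assigned gene, taken by nearest start site in the table's annotation, has a mouse symbol starting with Kcn. The rule gave 477 of 94410 peaks, at 96 of the 98 Kcn symbols in the RefSeq gene table, and the other two, Kcnu1 and Kcnrg, had no peak. The family was picked after earlier results of these data, among them higher peaks at Kcnj11 and at the channel partner Dpp6, were known. Its changes against young HSCs are therefore a description, and the calls quoted are those the authors made across all peaks.

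ATAC-seq measures chromatin accessibility with a transposase that inserts sequencing adapters into open DNA. All libraries came from purified bone marrow HSCs of Gfplc3/Gfplc3 mice kept at steady state, in which LC3, an autophagosome protein, is fused to green fluorescent protein (GFP). The groups were old AThi HSCs, the fraction with low GFP, labelled as engaging autophagy (3 libraries), old ATlo HSCs, the fraction with high GFP, labelled as not engaging it (3 libraries), and young HSCs, which were not fractionated (5 libraries). The old fractions carry shared pair numbers, and isolation and transposition took 2 days. The sources used here do not give ages, sex or the number of animals per library, so p-values measure the spread between libraries only. Age and sorting by GFP cannot be told apart in either comparison with young HSCs.

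Potassium channels are membrane pores that let potassium ions cross the membrane down their gradient and so hold or restore its resting voltage. Voltage-gated channels open on depolarisation, inward rectifiers hold the resting voltage and answer G proteins or ATP, two-pore-domain channels carry a leak current, and calcium- or sodium-activated channels follow the ions inside the cell. Auxiliary subunits change the gating or transport of the pore-forming ones. They are studied mostly in nerve, muscle, kidney and endocrine cells, and a peak at such a gene is not a measurement of its expression.

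Promoter sequences are shown for 5 members whose start site carries a peak, to set start-site peaks that rose beside others that fell or did not pass. Kcnd2, Kcna5 and Kcnj10 had a start-site peak that rose in old HSCs of both fractions, Kcnk12 had a start-site peak that fell in old ATlo HSCs, and the start-site peak of Kcnj2 passed in neither comparison. The lower call at the Kcnk12 start ends under another scaling, given below. Another Kcnk12 peak, 650 bp downstream of the start, rose in both fractions. Kcnk12 therefore counts below among genes with a higher peak within 1 kb. Of the 96 genes, 71 matched a promoter in the RefSeq table by gene identifier. Each line gives the 200 bases upstream of the start, 5′ to 3′ on the gene's strand, from the RefSeq promoter table (build GRCm38.p6), with CpG dinucleotides in capitals.
Kcnd2 (chr6:21215146-21215345, plus strand): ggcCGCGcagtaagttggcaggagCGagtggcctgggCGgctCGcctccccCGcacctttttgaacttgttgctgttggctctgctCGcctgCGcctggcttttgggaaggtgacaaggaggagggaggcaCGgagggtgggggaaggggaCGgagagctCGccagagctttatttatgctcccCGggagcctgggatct
Kcna5 (chr6:126535556-126535755, minus strand): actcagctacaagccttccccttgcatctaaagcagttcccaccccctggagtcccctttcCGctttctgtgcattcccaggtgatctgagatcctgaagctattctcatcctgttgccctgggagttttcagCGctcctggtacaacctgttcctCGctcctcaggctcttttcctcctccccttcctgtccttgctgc
Kcnj10 (chr1:172341010-172341209, plus strand): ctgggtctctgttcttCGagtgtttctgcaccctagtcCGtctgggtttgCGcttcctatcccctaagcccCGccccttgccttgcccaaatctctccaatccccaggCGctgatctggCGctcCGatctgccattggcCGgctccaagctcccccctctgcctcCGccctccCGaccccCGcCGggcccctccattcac
Kcnk12 (chr17:87797995-87798194, minus strand): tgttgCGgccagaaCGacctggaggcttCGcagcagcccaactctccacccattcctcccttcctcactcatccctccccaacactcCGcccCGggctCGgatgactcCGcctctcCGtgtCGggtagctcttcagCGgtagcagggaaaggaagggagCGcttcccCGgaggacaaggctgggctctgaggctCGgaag
Kcnj2 (chr11:111065964-111066163, plus strand): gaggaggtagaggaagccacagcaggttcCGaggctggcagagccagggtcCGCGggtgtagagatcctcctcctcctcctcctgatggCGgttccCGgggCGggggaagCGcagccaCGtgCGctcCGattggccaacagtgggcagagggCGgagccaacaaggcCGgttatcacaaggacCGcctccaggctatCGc
Kcnd2, Kcnj10, Kcnk12 and Kcnj2 held 12, 12, 13 and 14 CpG in these bases, and Kcna5 held 3. High and low CpG content therefore both occurred among start sites that rose.

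Over 97 RefSeq promoters of Kcn genes (300 bases each, 250 before and 50 after the start), the median ratio of observed to expected CpG was 0.434, against 0.384 over 32851 promoters of all genes. The ratio had a median of 0.462 in promoters of Kcn genes with a peak within 1 kb of the start that was higher in either comparison and 0.483 in those with a peak there but none higher. The AP-1 motif TGANTCA, searched on both strands, occurred in 4.12% of Kcn promoters, against 7.81% of all promoters, and the RUNX motif TGTGGT in 11.3%, against 16.8%. AGATAA, the GATA motif, was present in 4.12% of Kcn promoters, against 11.2% of all, and GGACAG, a part of the site of the neuronal repressor REST, in 29.9%, against 22.2%. GGACAG occurred in 23.8% of 21 promoters of Kcn genes with a higher peak within 1 kb. It occurred in 32.7% of 55 with a peak there but none higher. The AP-1, RUNX and GATA motifs occurred in 0%, 14.3% and 0% of the former and 7.27%, 10.9% and 3.64% of the latter. Median GC content was 58.0% in Kcn promoters and 52.7% in all promoters. No motif of the 4 contains another, and a match is a description of letters, not a binding site. Of the printed sequences only that of Kcna5 held any of the 4 motifs, 1 copy of GGACAG.

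Old HSCs of both fractions had higher accessibility than young HSCs at a group of Kcn peaks, while most members did not pass. For old AThi against young HSCs the authors' deposited table called 74 of 477 Kcn peaks higher at an adjusted p under 0.05, or 15.5%, beside 7.42% of all peaks. Lower calls numbered 5 Kcn peaks there, or 1.05%, beside 2.69% of all peaks. Against the same young libraries, 69 Kcn peaks were called higher in old ATlo HSCs in the authors' deposited table, or 14.5%, beside 6.75% of all peaks, and 5 lower, beside 2.49%. By gene, 43 of 96 members had a higher peak in old AThi HSCs (44.8%, beside 23.8% of all genes with a peak) and 44 in old ATlo HSCs (45.8%, beside 21.8%). Genes with more peaks have more chances of a call, and Kcn genes had a median of 4 peaks, against 3 over all genes. A lower peak was found at 5 of 96 members in old AThi and 3 in old ATlo HSCs, beside 2198 and 2093 of all 20810 genes with a peak. Neither a higher nor a lower peak was found at 50 members in old AThi and 51 in old ATlo HSCs. Both comparisons use the same young libraries, so their likeness is no separate evidence. Because the family was picked with these contrasts known, the shares are given beside the background without a test.

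The median log2 change of Kcn peaks was 0.13 in old AThi and 0.13 in old ATlo HSCs against young, where all peaks had -0.04 in old AThi and -0.03 in old ATlo HSCs, all from the authors' deposited tables. Higher calls at Kcn peaks had log2 changes from 0.54 to 4.19 in old AThi HSCs (median 1.39) and from 0.44 to 4.14 in old ATlo HSCs (median 1.37) per the authors' deposited tables. Higher calls over all peaks had a median of 1.21 in old AThi and 1.20 in old ATlo HSCs. At least 2-fold changes were found at 58 of the 74 higher Kcn calls in old AThi and 51 of 69 in old ATlo HSCs. Over all peaks, 4616 of 7004 higher calls in old AThi HSCs were at least 2-fold. How the calls divide into higher and lower depends on the scaling. At the 2289 strongest promoters the median log2 change was -0.22 in old AThi and -0.30 in old ATlo HSCs against young, and with these medians moved to 0, 108 Kcn peaks passed as higher and 4 as lower in old AThi HSCs, and 118 and 0 in old ATlo HSCs. For all peaks that scaling gave 12365 higher and 813 lower calls in old AThi HSCs, in place of 7004 and 2539, and 15528 higher and 307 lower calls in old ATlo HSCs, in place of 6370 and 2351.

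Libraries could not be looked at singly, since the deposited tables hold 1 mean level per peak over all 11 libraries and no value per library. Kcn peaks were 210 to 2028 bp wide, with a mean normalised count from 5.14 to 344 (median 24.8, where all peaks had 27.5) per the authors' deposited tables. Group means quoted as implied were computed from that level and both changes against young, on the assumption that the authors' fit had the group as its only term. They carry no SD, and whether single libraries of the groups overlap cannot be told from them. Among cell type markers, 13 of 14 HSC genes had a promoter peak within 1 kb, all but Ly6a. T cell genes had one at 1 of 6 and B cell genes at 2 of 5. Granulocyte and monocyte genes had one at 1 of 7 and erythroid genes at 3 of 5. Neuronal markers had one at 8 of 8 genes, with a median level per kb of 84.5, against 130.0 for HSC markers, 63.5 for Kcn genes and 131 for all genes. Endothelial and stromal markers had one at 5 of 6 genes. Of all 20810 genes, 15013 had one, so having such a peak does not by itself tell HSCs from other cells. Among the 12 promoter peaks of neuronal markers, 2 were called higher in old AThi HSCs and 1 in old ATlo HSCs, and among the 5 of endothelial and stromal markers 1 in each fraction. The 20 promoter peaks of HSC markers had 2 higher and 2 lower calls in old AThi and 2 higher and 4 lower in old ATlo HSCs. The other marker lists had no call in either fraction, and the part of these markers in the Kcn result was not tested. Over all promoter peaks within 1 kb, 7.33% were higher and 4.60% lower in old AThi HSCs, and 5.75% and 6.87% in old ATlo HSCs. The marker lists are small, and none was tested against these shares.

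**Figure D1:**
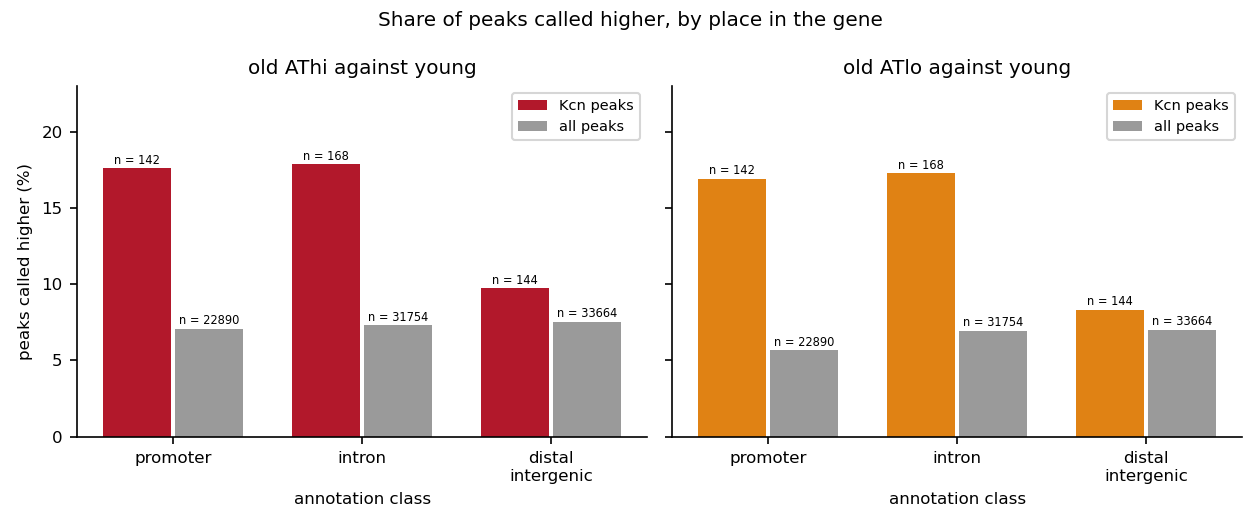
Share of peaks called higher against young HSCs (percent, adjusted p under 0.05) for Kcn peaks, left bar of each pair, and all peaks of the same annotation class, right bar, in old AThi HSCs (left panel) and old ATlo HSCs (right panel); n is the number of peaks. Kcn promoters and introns stood at 17.6% and 17.9% in old AThi HSCs, while distal Kcn peaks stood at 9.72%, beside 7.53% of all distal peaks.

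By place in the gene, the higher calls lay mostly in promoters and introns. Of 142 Kcn promoter peaks, within 3 kb of a start site, 25 were called higher in old AThi HSCs (17.6%, beside 7.08% of all promoter peaks) and 24 in old ATlo HSCs (16.9%, beside 5.67%). Introns held 168 Kcn peaks, of which 30 were higher in old AThi (17.9%, beside 7.29% of all intron peaks) and 29 in old ATlo HSCs (17.3%, beside 6.93%). Among 144 distal intergenic Kcn peaks, 14 were higher in old AThi (9.72%, beside 7.53% of all such peaks) and 12 in old ATlo HSCs (8.33%, beside 7.02%). An intron or exon peak can lie in a gene other than the one it is assigned to: 62 Kcn peaks lay in introns or exons of another gene, and 12 of these were higher in old AThi (19.4%) and 11 in old ATlo HSCs (17.7%). The 121 that lay inside the assigned gene itself held 21 higher calls in old AThi (17.4%) and 20 in old ATlo HSCs (16.5%). All intron peaks had 7.29% and all exon peaks 8.99% higher in old AThi HSCs, and 6.93% and 8.86% in old ATlo HSCs. The bar chart of shares by annotation class shows the promoter, intron and distal values side by side.

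**Figure D2:**
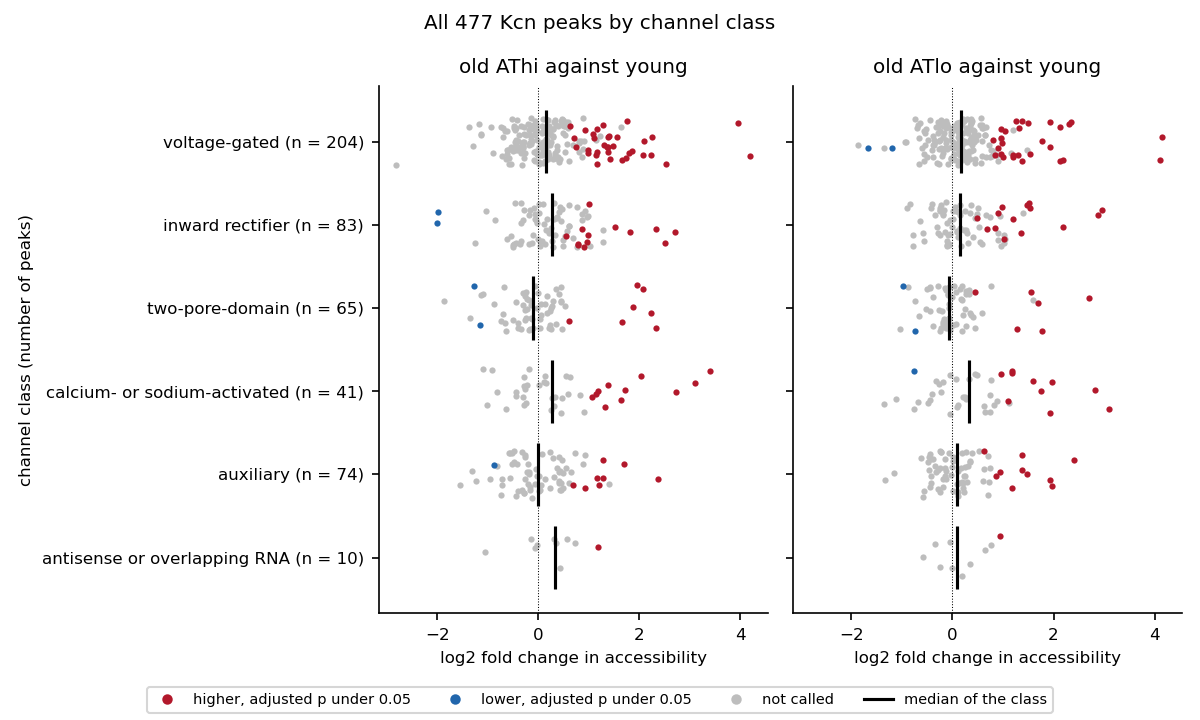
Log2 fold change of all 477 Kcn peaks by channel class in old AThi against young HSCs (left) and old ATlo against young HSCs (right); each point is a peak, coloured where called at an adjusted p under 0.05, and a black line marks the class median. Called-higher peaks occurred in every class, and the median lay below 0 in both fractions only in the two-pore-domain class, at -0.11 in old AThi and -0.07 in old ATlo HSCs.

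Voltage-gated channels formed the biggest class, with 204 peaks at 40 genes, and 20 genes had a higher peak in each old fraction. Calls higher than young numbered 34 peaks in old AThi HSCs (16.7%, beside 7.42% of all peaks) and 28 in old ATlo HSCs (13.7%, beside 6.75%). Calls lower numbered 0 in old AThi HSCs (beside 2.69% of all peaks) and 2 in old ATlo HSCs (0.980%, beside 2.49%). Promoters of this class held 15 of 63 higher in old AThi HSCs (23.8%, beside 7.08% of all promoter peaks) and 13 of 63 in old ATlo HSCs (20.6%, beside 5.67%). The smallest p of the class lay at a distal peak 58.4 kb upstream of Kcna4, a channel that gives a fast transient current (chr2:107061819-107062492, build mm39, as for every peak position given here). Its implied means were 105 normalised counts in old AThi, 117 in old ATlo and 6.72 in young HSCs. In the authors' deposited tables it changed by 3.96 (SE 0.45, adjusted p = 9.41e-16) in old AThi and 4.12 (SE 0.45, adjusted p = 7.57e-17) in old ATlo HSCs on the log2 scale. Young HSCs thus had the lowest of the 3 implied means, and Kcna4's own start-site peak rose too, by 1.30 in old AThi and 1.49 in old ATlo HSCs (log2) per the authors' deposited tables.

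Promoters of fast delayed rectifiers and of the Shab channel Kcnb2 were also higher in both old fractions. The start-site peak of Kcnc1, a channel of fast-firing neurons (chr7:46045853-46046599), had implied means of 290.3 in old AThi, 254 in old ATlo and 129.9 in young HSCs, and was 2.23-fold higher in old AThi (log2 1.16, SE 0.16) and 1.95-fold higher in old ATlo HSCs (log2 0.97, SE 0.16) per the authors' deposited tables. It was the only one of the 10 Kcn promoter peaks with the highest mean level that passed in either comparison with young HSCs under the authors' scaling. The Kcnc2 promoter (chr10:112107312-112108164) had implied means of 139 in old AThi, 132 in old ATlo and 53.2 in young HSCs, with log2 changes of 1.38 (SE 0.21) in old AThi and 1.32 (SE 0.20) in old ATlo HSCs per the authors' deposited tables. Kcnb2, a delayed rectifier (chr1:15356567-15357625), had implied means of 86.2 in old AThi, 93.0 in old ATlo and 20.3 in young HSCs, and its promoter rose by 2.09 (SE 0.28) in old AThi and 2.20 (SE 0.28) in old ATlo HSCs per the authors' deposited tables. The other Kcnb2 peak, in intron 2, rose by 1.76 (SE 0.42) in old AThi and 1.92 (SE 0.41) in old ATlo HSCs per the authors' deposited tables.

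The A-type channel Kcnd2 and the Shaker channel Kcna5 are the voltage-gated members whose upstream bases are printed above. At Kcnd2, which carries the fast transient current of neuronal dendrites (chr6:21214498-21215913), implied means were 113 in old AThi, 106 in old ATlo and 46.1 in young HSCs. The log2 changes were 1.29 (SE 0.22, adjusted p = 3.04e-07) in old AThi and 1.21 (SE 0.22, adjusted p = 2.22e-06) in old ATlo HSCs, per the authors' deposited tables. Kcna5, Kcna1 and Kcna6 lie side by side on chromosome 6, and each had a start-site peak that rose in both fractions. For Kcna5 (chr6:126511928-126512585) the implied means were 39.3 in old AThi, 29.3 in old ATlo and 15.0 in young HSCs. Kcna6 rose by 1.15 (SE 0.25) in old AThi and 0.90 (SE 0.25) in old ATlo HSCs, and Kcna1 by 0.99 (SE 0.29) in old AThi and 0.99 (SE 0.29) in old ATlo HSCs, per the authors' deposited tables. None of the other 12 peaks assigned to these 3 genes passed in either comparison. Kcna3, the Shaker channel known from T lymphocytes, had a higher peak in old AThi HSCs only, and that the fractions differ there was not shown.

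Ether-a-go-go channels, which include the cardiac channel Kcnh2, had higher peaks at Kcnh1, Kcnh2, Kcnh5, Kcnh7 and Kcnh8. A peak in intron 10 of Kcnh1 (chr1:192126749-192127714), 253.7 kb from the start, had implied means of 91.2 in old AThi, 110.1 in old ATlo and 21.5 in young HSCs. It rose by 2.08 (SE 0.29) in old AThi and 2.35 (SE 0.28) in old ATlo HSCs on the log2 scale per the authors' deposited tables. Kcnh2 has start sites of a long and a short transcript, and only the peak at the long one rose, an example picked after its values were seen. The long-transcript peak (chr5:24556523-24557203) changed by 1.17 (SE 0.24) in old AThi and 0.96 (SE 0.24) in old ATlo HSCs, per the authors' deposited tables. At the short-transcript start (chr5:24534070-24535434) the authors' deposited tables gave -0.01 (SE 0.16, adjusted p = 0.989) in old AThi and -0.14 (SE 0.16, adjusted p = 0.682) in old ATlo HSCs. The difference between these peaks was not tested. The highest log2 change of any member, 4.19 (SE 0.83) in old AThi and 4.14 (SE 0.82) in old ATlo HSCs per the authors' deposited tables, lay at a distal peak of Kcnh8, also picked after its values were seen. Its mean level of 7.72 normalised counts is low, and the implied mean in young HSCs was 0.753.

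Kcnq5, a channel of the M-type group, had 12 peaks and one of the strongest promoters of the family, whose log2 difference from young was 0.08 (SE 0.14) in old AThi and -0.09 (SE 0.14) in old ATlo HSCs, not passing per the authors' deposited tables. Silent subunits, which form channels only together with others, went both ways. A peak assigned to Kcns1 in intron 10 of the kinase gene Stk4 (chr2:163992107-163992835) rose by 2.24 (SE 0.25) in old AThi and 2.13 (SE 0.25) in old ATlo HSCs per the authors' deposited tables. The distal peaks of Kcng1 at 114.8 and 148.1 kb upstream fell, with log2 changes of -1.20 and -1.67 in old ATlo HSCs per the authors' deposited table (adjusted p = 0.0396 and 0.0456). These calls end under the scaling to the strongest promoters, as do the other 3 lower calls in old ATlo HSCs, at Kcnk12 and Kcnn1. Old AThi HSCs had -1.17 (adjusted p = 0.0564) and -1.37 (adjusted p = 0.121) at these peaks per the authors' deposited table.

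**Figure D3:**
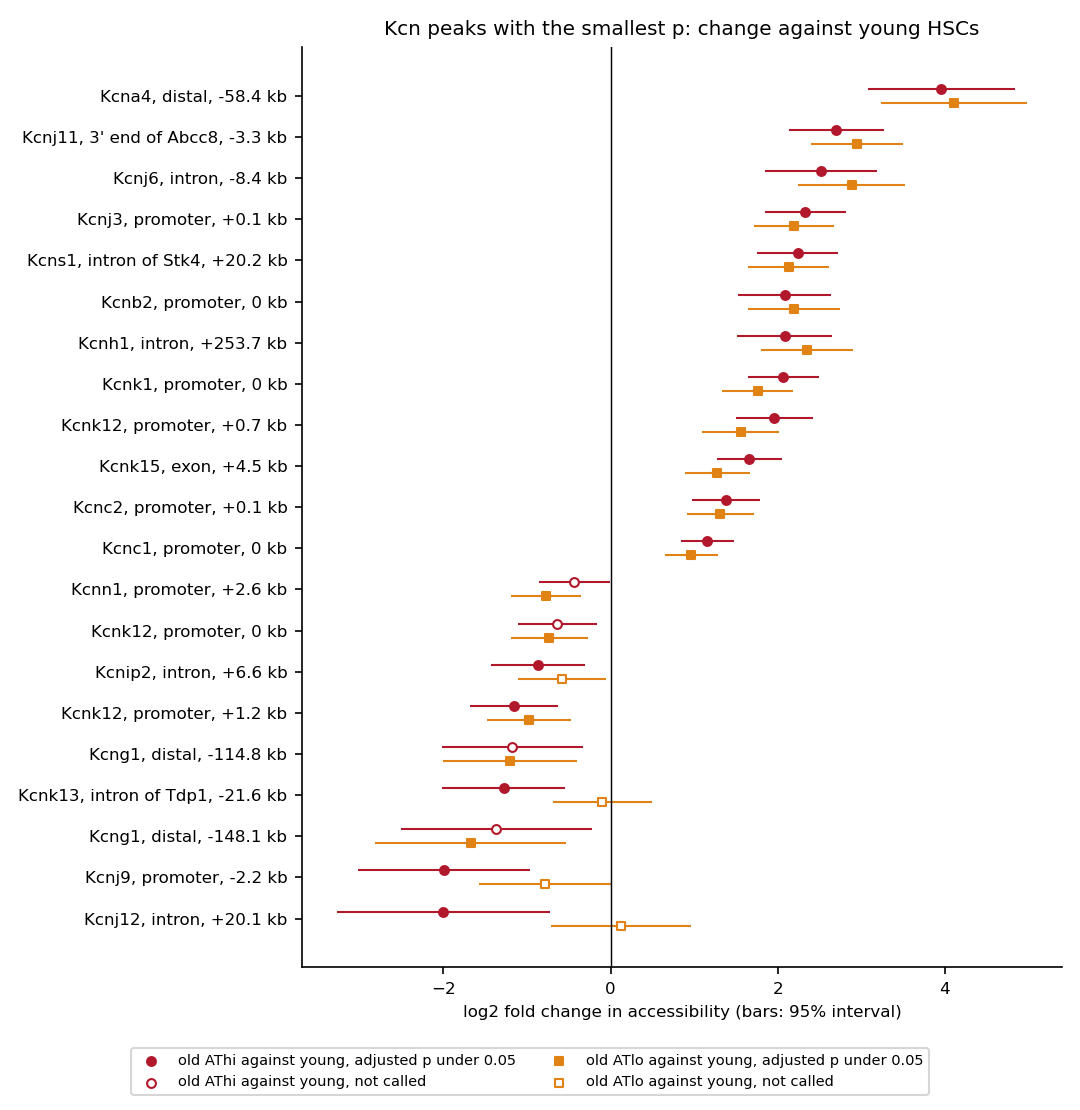
Log2 fold change against young HSCs, with 95% intervals, at the Kcn peaks with the smallest p in either comparison: old AThi (circles, upper of each pair) and old ATlo (squares), filled where the adjusted p was under 0.05; kb are distances from the start site. Among the 12 higher peaks the log2 changes run from 1.16 to 3.96 in old AThi and from 0.97 to 4.12 in old ATlo HSCs; both sets of points share the young libraries.

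Inward rectifiers, with 83 peaks at 15 genes, had 13 higher calls in old AThi HSCs (15.7%, beside 7.42% of all peaks) and 14 in old ATlo HSCs (16.9%, beside 6.75%). Lower calls numbered 2 in old AThi HSCs (2.41%, beside 2.69%) and 0 in old ATlo HSCs (beside 2.49%). The median log2 change of their peaks was 0.27 in old AThi and 0.14 in old ATlo HSCs per the authors' deposited tables. Kcnj3, a subunit of the G protein-gated channels that slow the heart, had a promoter peak 80 bp downstream of its start (chr2:55326062-55326752). Its implied means were 104 in old AThi, 94.5 in old ATlo and 20.6 in young HSCs, and its log2 changes 2.33 (SE 0.25, adjusted p = 6.60e-18) in old AThi and 2.19 (SE 0.24, adjusted p = 6.79e-16) in old ATlo HSCs per the authors' deposited tables. Kcnj6, its neuronal partner, had the most peaks of any member, 15, of which a single one passed. That peak, in intron 2 (chr16:94665918-94666509), rose by 2.52 (SE 0.34) in old AThi and 2.89 (SE 0.33) in old ATlo HSCs per the authors' deposited tables. The other 14 log2 changes per the authors' deposited tables ranged from -0.53 to 0.87 in old AThi and from -0.89 to 1.39 in old ATlo HSCs. The start-site peak of Kcnj10, the inward rectifier of glial cells (chr1:172168269-172169233), was among the smallest changes that passed, at 0.54 (SE 0.17, adjusted p = 0.0210) in old AThi and 0.48 (SE 0.17, adjusted p = 0.0467) in old ATlo HSCs, per the authors' deposited tables. Kcnj2 showed a start-site peak with log2 changes of -0.00 (SE 0.17) in old AThi and -0.24 (SE 0.17) in old ATlo HSCs, not passing, and a distal peak 22.4 kb away at 1.52 (SE 0.24) in old AThi and 1.36 (SE 0.23) in old ATlo HSCs that passed in both, per the authors' deposited tables.

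Kcnj11, the pore of the ATP-sensitive channel of pancreatic beta cells, lies next to Abcc8, which encodes the sulfonylurea receptor of the same channel. Of its 9 peaks 5 were called higher in old AThi HSCs and 6 in old ATlo HSCs. The strongest is annotated to a 3′ UTR (chr7:45753497-45754279), which by the tables' own transcript ends is that of Abcc8: 333 bp of the peak overlap the end of Abcc8, and it lies 3.31 kb upstream of the Kcnj11 start. Implied means there were 74.3 in old AThi, 88.6 in old ATlo and 11.4 in young HSCs. The authors' deposited tables gave 2.70 (SE 0.29, adjusted p = 1.80e-17) in old AThi and 2.95 (SE 0.28, adjusted p = 8.00e-22) in old ATlo HSCs on the log2 scale. At the Kcnj11 start site (chr7:45749863-45750425) the implied means were 63.9 in old AThi, 61.8 in old ATlo and 63.6 in young HSCs, with changes of 0.01 (SE 0.25) in old AThi and -0.04 (SE 0.25) in old ATlo HSCs per the authors' deposited tables. The 95% intervals of those changes ran from -0.49 to 0.50 in old AThi and from -0.52 to 0.44 in old ATlo HSCs.

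Inside Abcc8, the exon 26 peak assigned to Kcnj11 rose by 0.97 (SE 0.33) in old AThi and 1.03 (SE 0.32) in old ATlo HSCs per the authors' deposited tables. A peak in intron 16 of Abcc8, 30.5 kb from the Kcnj11 start, rose by 1.81 (SE 0.44) in old AThi and 1.51 (SE 0.44) in old ATlo HSCs per the authors' deposited tables. Its neighbour at 30.1 kb passed in old ATlo HSCs alone (1.48, adjusted p = 0.0335), against 1.28 (adjusted p = 0.0959) in old AThi HSCs per the authors' deposited tables, and the one at 33.2 kb in neither (0.77 in old AThi and 0.67 in old ATlo HSCs). Downstream of Kcnj11, the peaks at 11.4 and 15.0 kb rose in both fractions, by 0.79 and 0.78 in old AThi and 0.90 and 1.20 in old ATlo HSCs per the authors' deposited tables, while that at 3.61 kb did not pass (-0.34 in old AThi and -0.55 in old ATlo HSCs). The 3 peaks assigned to Abcc8 itself, one of them 1.64 kb upstream of its start, lay between -0.52 and 0.22 in old AThi and between -0.13 and 0.63 in old ATlo HSCs per the authors' deposited tables, and none passed.

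**Figure D4:**
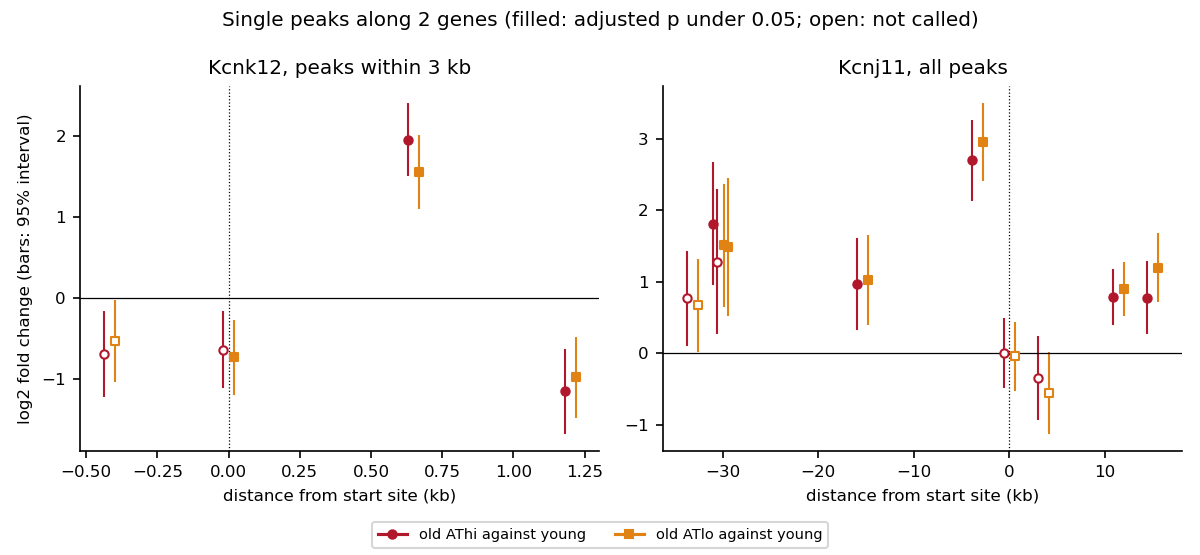
Log2 fold change against young HSCs with 95% intervals by distance from the start site (kb, positive downstream) for the Kcnk12 peaks within 3 kb and for all 9 Kcnj11 peaks: old AThi as circles, old ATlo as squares, filled where the adjusted p was under 0.05. Peaks less than 1 kb apart went in opposite directions at Kcnk12, and the Kcnj11 start site lay at 0.01 in old AThi and -0.04 in old ATlo HSCs between higher peaks.

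Two-pore-domain channels, with 65 peaks at 14 genes, were the class in which a lower call was seen in each comparison at the same gene, Kcnk12. Higher calls numbered 7 in old AThi HSCs (10.8%, beside 7.42% of all peaks) and 6 in old ATlo HSCs (9.23%, beside 6.75%). Lower calls numbered 2 in each, or 3.08%, beside 2.69% of all peaks in old AThi and 2.49% in old ATlo HSCs. All these shares lie near those of all peaks. The start-site peak of Kcnk1, a weakly conducting leak channel (chr8:126721783-126722808), had implied means of 155 in old AThi, 125 in old ATlo and 37.0 in young HSCs. It was 4.20-fold higher in old AThi (log2 2.07, SE 0.22, adjusted p = 1.35e-18) and 3.39-fold higher in old ATlo HSCs (log2 1.76, SE 0.22, adjusted p = 2.83e-13) per the authors' deposited tables. Exon 2 of Kcnk15 (chr2:163700198-163700775) had implied means of 136 in old AThi, 104 in old ATlo and 43.0 in young HSCs, and changed by 1.66 (SE 0.20) in old AThi and 1.28 (SE 0.20) in old ATlo HSCs per the authors' deposited tables.

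Kcnk12, a channel subunit of the THIK group, had 4 peaks within 3 kb of its start, and neighbours moved in opposite directions. The peak 650 bp downstream of the start (chr17:88104453-88104772) had implied means of 116 in old AThi, 87.9 in old ATlo and 29.9 in young HSCs. It rose by 1.96 (SE 0.23) in old AThi and 1.56 (SE 0.23) in old ATlo HSCs per the authors' deposited tables. The next peak, at 1.2 kb (chr17:88103309-88104222), had 37.8 in old AThi, 42.7 in old ATlo and 84.0 in young HSCs and changed by -1.15 (SE 0.27, adjusted p = 5.78e-04) in old AThi and -0.98 (SE 0.26, adjusted p = 0.00350) in old ATlo HSCs per the authors' deposited tables. Over the start itself (chr17:88105022-88105739), whose upstream bases are printed above, the change was -0.64 (SE 0.24, adjusted p = 0.0713) in old AThi and -0.73 (SE 0.24, adjusted p = 0.0266) in old ATlo HSCs, so it passed in old ATlo alone per the authors' deposited tables. In old ATlo HSCs both lower calls at Kcnk12, at the start and at 1.2 kb, end under the scaling to the strongest promoters, while the 1.2 kb call in old AThi HSCs stays. The 3′ UTR peak of Kcnk12 rose by 0.62 (SE 0.15) in old AThi and 0.44 (SE 0.14) in old ATlo HSCs per the authors' deposited tables. The plot of changes along the genes shows the higher peak between both lower ones. Kcnk13, its closest relative, had 9 peaks, none higher. One assigned to it, in intron 14 of the DNA repair gene Tdp1 (chr12:99908582-99909208), had log2 differences from young of -1.28 (SE 0.38, adjusted p = 0.0112) in old AThi and -0.10 (SE 0.30, adjusted p = 0.899) in old ATlo HSCs per the authors' deposited tables.

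Calcium- and sodium-activated channels had 41 peaks at 7 genes, with 11 higher calls in old AThi HSCs (26.8%, beside 7.42% of all peaks) and 10 in old ATlo HSCs (24.4%, beside 6.75%). Lower calls numbered 0 in old AThi HSCs (beside 2.69%) and 1 in old ATlo HSCs (2.44%, beside 2.49%). Higher peaks lay at Kcnma1, the large-conductance calcium-activated channel, at the small-conductance channels Kcnn1 and Kcnn2, and at the sodium-activated channel Kcnt2. None lay at Kcnn3, which had 12 peaks, at Kcnn4, the channel of red cells and lymphocytes, or at Kcnt1. The Kcnn1 promoter peak 74 bp upstream of the start (chr8:71315976-71316241) had implied means of 96.5 in old AThi, 72.7 in old ATlo and 37.1 in young HSCs. Its changes were 1.38 (SE 0.25) in old AThi and 0.97 (SE 0.25) in old ATlo HSCs per the authors' deposited tables. Another Kcnn1 promoter peak (chr8:71306333-71307019) lies 2.63 kb downstream of a different Kcnn1 start. There the authors' deposited tables gave -0.43 (SE 0.21, adjusted p = 0.205) in old AThi and -0.77 (SE 0.21, adjusted p = 0.00736) in old ATlo HSCs. These changes were opposite in sign to those of the first peak. The lower call in old ATlo HSCs ends under the scaling to the strongest promoters. Kcnt2 had a promoter peak that rose by 1.71 (SE 0.32) in old AThi and 1.75 (SE 0.32) in old ATlo HSCs, per the authors' deposited tables. Kcnma1 rose at 4 of 7 peaks in each fraction, all 4 in its introns 2 and 5, with log2 changes from 1.07 to 2.72 in old AThi and from 1.18 to 1.97 in old ATlo HSCs per the authors' deposited tables. Its start-site peak lay just outside the threshold in old ATlo HSCs, at 0.73 (adjusted p = 0.0519), against 0.45 (adjusted p = 0.330) in old AThi HSCs per the authors' deposited tables. Kcnn2 had 5 of 9 peaks higher in old AThi and 4 in old ATlo HSCs, and its 9 log2 changes, per the authors' deposited tables, ran from 0.55 to 3.40 in old AThi and from 0.62 to 3.09 in old ATlo HSCs.

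**Figure D5:**
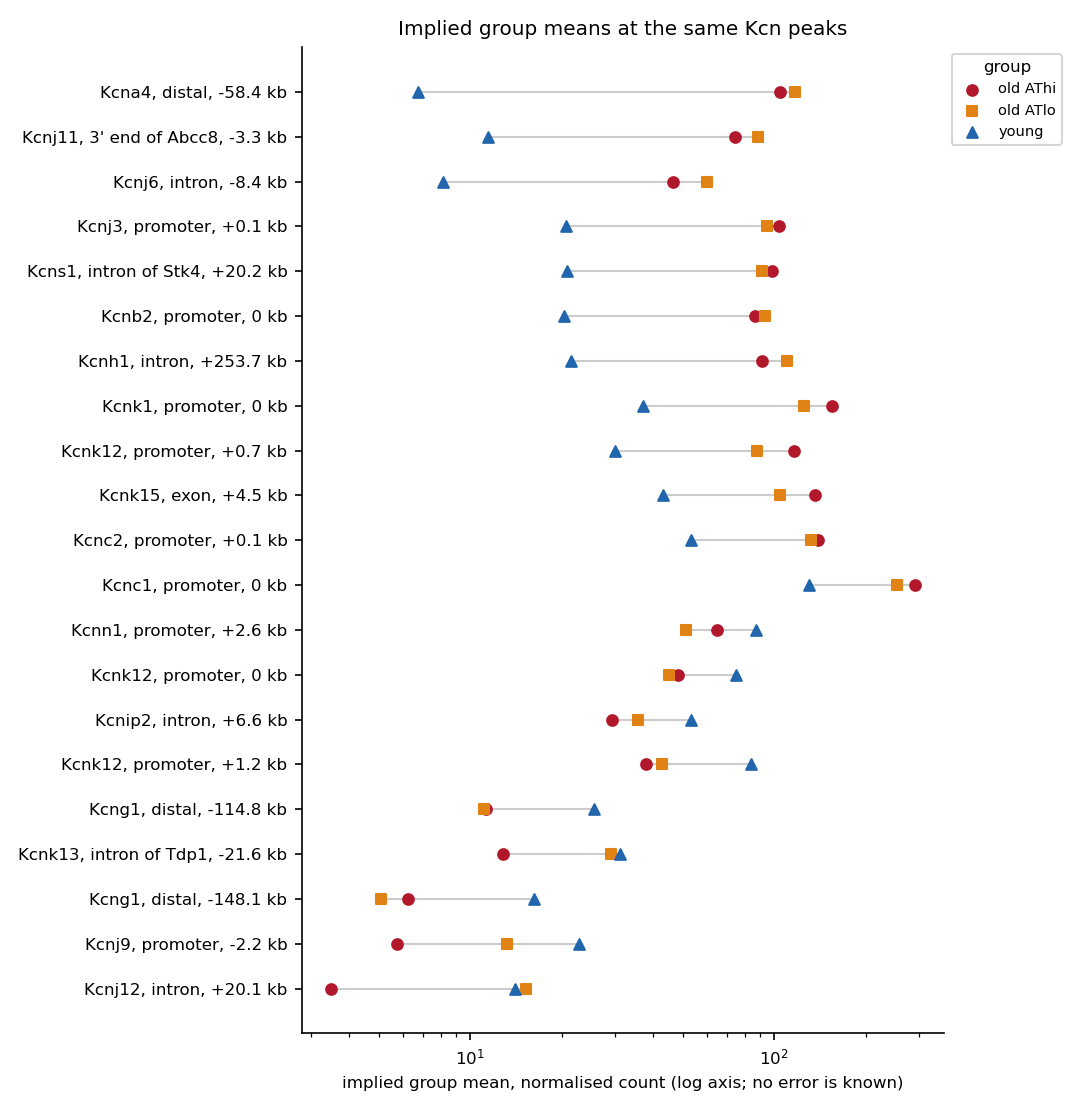
Implied group means (normalised count, log axis) at the same Kcn peaks as in the plot of log2 changes: old AThi (circles), old ATlo (squares) and young HSCs (triangles), computed from the authors' mean level and log2 changes, with no error known. At Kcna4 -58.4 kb old AThi lies at 105, old ATlo at 117 and young at 6.72; at Kcnj12 and Kcnk13 the old ATlo mean lies beside the young one and the old AThi mean below both.

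Auxiliary subunits, with 74 peaks at 16 genes, had 8 higher calls in old AThi HSCs (10.8%, beside 7.42% of all peaks) and 10 in old ATlo HSCs (13.5%, beside 6.75%). Lower calls numbered 1 in old AThi HSCs (1.35%, beside 2.69%) and 0 in old ATlo HSCs (beside 2.49%). Higher peaks lay at 5 genes, Kcnab1, Kcne4, Kcnip1, Kcnip3 and Kcnip4, and the last 3 encode calcium-binding proteins that join the A-type channels. In each fraction 1 of 23 promoter peaks of this class, that of Kcnip1, was called higher (4.35%, beside 7.08% of all promoter peaks in old AThi and 5.67% in old ATlo HSCs). A distal peak 238.8 kb upstream of Kcnip4 (chr5:49681846-49682551) had implied means of 32.4 in old AThi, 33.3 in old ATlo and 6.26 in young HSCs, and changed by 2.37 (SE 0.41) in old AThi and 2.41 (SE 0.40) in old ATlo HSCs per the authors' deposited tables. Intron 1 of Kcnip2 fell by 0.87 (SE 0.29, adjusted p = 0.0312) in old AThi HSCs, a call that ends under the other scaling, and old ATlo HSCs had -0.58 (adjusted p = 0.164) there per the authors' deposited tables. The Kcn promoter peak with the highest mean level, 1.31 kb upstream of a Kcnip3 start, had log2 differences from young of 0.14 (SE 0.13) in old AThi and -0.04 (SE 0.13) in old ATlo HSCs per the authors' deposited tables and did not pass. With the strongest promoters scaled to a median of 0 it passed in old AThi HSCs. The noncoding RNAs named after channels, Kcnd3os, Kcnmb4os1, Kcnmb4os2 and Kcnq1ot1, had 10 peaks, of which 1 was higher in each fraction. It is assigned to Kcnd3os but lies in intron 2 of Kcnd3 and rose by 1.19 (SE 0.24) in old AThi and 0.93 (SE 0.24) in old ATlo HSCs per the authors' deposited tables. Kcnq1ot1, the imprinted antisense RNA of Kcnq1, had a promoter at -0.14 (SE 0.18) in old AThi and -0.25 (SE 0.18) in old ATlo HSCs, not passing per the authors' deposited tables, and accessibility carries no strand.

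At the threshold, the member just inside in old AThi HSCs was a peak 11.3 kb downstream of the Kcna4 start (log2 1.17, adjusted p = 0.0487) and the one just outside a peak in intron 23 of Armh3 assigned to Kcnip2 (-1.54, adjusted p = 0.0512) per the authors' deposited table. For old ATlo HSCs the start-site peak of Kcna5, a channel of atrial muscle, lay just inside (log2 0.96, adjusted p = 0.0496) per the authors' deposited table, with 1.39 (adjusted p = 9.93e-04) in old AThi HSCs.

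Old AThi and old ATlo HSCs were compared directly in the third of the authors' deposited tables, which asks whether the chromatin of old HSCs differs with autophagy status. No Kcn peak passed: 0 of 477 were called by DESeq2's Wald test, beside 0% of all peaks, and every adjusted p of a Kcn peak was 0.999998. At an unadjusted p under 0.05 there were 12 Kcn peaks, 2 higher and 10 lower in old AThi HSCs, or 2.52%, beside 1.78% of all peaks. Over all peaks 687 were higher and 996 lower, so more were lower there too. Both shares lie below the fraction of 0.05 expected at this threshold where no peak differs. The median log2 difference of Kcn peaks was 0.00, where all peaks had 0.01. The smallest unadjusted p lay in intron 1 of Kcnj12, a cardiac inward rectifier, where implied means were 3.49 normalised counts in old AThi and 15.2 in old ATlo HSCs, with 14.0 in young HSCs. Its log2 difference was -2.13 (SE 0.69, unadjusted p = 0.00201) per the authors' deposited table, at a low level. Next was the Kcnk13 peak in Tdp1, at -1.18 (SE 0.41, unadjusted p = 0.00405) per the authors' deposited table. Distal or intron peaks of Kcnd3 (-1.03), Kcnq1 (-1.08) and Kcnh2 (-0.59) followed, with unadjusted p of 0.0193, 0.0292 and 0.0323 per the authors' deposited table.

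On the higher side, none passing the adjustment, were the Kcns1 promoter 2.12 kb from the start (0.47, unadjusted p = 0.0262) and a Kcnc1 peak in intron 10 of Sergef (0.60, unadjusted p = 0.0374) per the authors' deposited table. An exon peak of Kcnq1ot1 (0.92) and the Kcnk15 exon peak (0.38) came after them, with unadjusted p of 0.0648 and 0.0657 per the authors' deposited table. At 4 of the peaks most changed against young, the 95% interval of the difference between the fractions included 0. The authors' deposited table gave 0.31 for Kcnk1 (95% interval -0.13 to 0.74), 0.14 for Kcnj3 (-0.34 to 0.62), -0.25 for the Kcnj11 peak at the end of Abcc8 (-0.78 to 0.27) and -0.16 for the distal Kcna4 peak (-0.99 to 0.68). These intervals allow differences of over 1.5-fold in at least 1 direction, so the fractions are not shown to be alike.

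Kcnj9, a subunit of G protein-gated channels, had promoter peaks on either side of its start that moved in opposite directions in old AThi HSCs. The peak 2.21 kb upstream of the start fell to an implied 5.73 in old AThi HSCs, against 13.2 in old ATlo and 22.8 in young HSCs. Against young this was -1.99 (SE 0.53, adjusted p = 0.00333) for old AThi and -0.78 (SE 0.40, adjusted p = 0.235) for old ATlo HSCs, and between the fractions -1.21 (SE 0.58, unadjusted p = 0.0380), per the authors' deposited tables. The Kcnj9 promoter peak 2.68 kb downstream rose in both fractions, by 0.99 (SE 0.24) in old AThi and 0.84 (SE 0.24) in old ATlo HSCs per the authors' deposited tables.

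Some Kcn genes neighbour each other, so their peaks are not spread evenly over the genome. With start sites linked at up to 200 kb, 23 of the 96 genes fell into 10 groups, which held 12 of the 74 Kcn peaks higher in old AThi HSCs. The small counts per group below stand beside 15.5% of Kcn peaks and 7.42% of all peaks higher in old AThi HSCs. In old ATlo HSCs these shares were 14.5% and 6.75%. The Kcna5, Kcna1 and Kcna6 group on chromosome 6 had 15 peaks, of which 3 were higher in each fraction, the start-site peak of each gene. Kcnj9 and Kcnj10 on chromosome 1 had 2 of 5 peaks higher in each fraction, and Kcnj5 and Kcnj1 on chromosome 9 had 2 of 13. In the Kcnq1 and Kcnq1ot1 group on chromosome 7, and in the Kcnk5 and Kcnk16 group on chromosome 14, 0 of 13 peaks each were called higher in either fraction. The Kcnj2 group on chromosome 11 had 2 of 18 higher in old AThi and 1 in old ATlo HSCs. For the Kcna3 group on chromosome 3 these were 2 of 11 and 1. Kcnd3 and Kcnd3os had 1 of 12 higher in each fraction. The Kcnmb4 group on chromosome 10 had 0 of 3 and the Kcne group on chromosome 16 had 0 of 4.

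Other ion transport genes, listed by name, gave the setting of these counts. Channel partners (11 genes, 56 peaks) had 12 higher and 1 lower call in old AThi HSCs (21.4% higher, beside 7.42% of all peaks) and 8 higher and 1 lower in old ATlo HSCs (14.3% higher, beside 6.75%). Of these, 7 higher calls in old AThi and 5 in old ATlo HSCs are peaks of Dpp6, one of the genes known beforehand to have higher peaks. At the main start-site peak of Dpp6, a partner of the A-type channels (chr5:27108873-27110051), implied means were 159 in old AThi, 139.5 in old ATlo and 24.3 in young HSCs. Its relative Dpp10 had a promoter peak that rose by 1.81 (SE 0.27) in old AThi and 1.67 (SE 0.27) in old ATlo HSCs per the authors' deposited tables. Cyclic nucleotide-gated channels, pacemaker Hcn channels included (10 genes, 40 peaks) had 7 higher calls in old AThi (17.5%) and 6 in old ATlo HSCs (15.0%), none lower. Voltage-gated calcium channels (26 genes, 139 peaks) had 20 higher and 3 lower in old AThi (14.4% higher) and 16 higher and 1 lower in old ATlo HSCs (11.5% higher). Voltage-gated sodium channels (13 genes, 63 peaks) had 6 higher and 0 lower in old AThi (9.52% higher) and 7 higher and 1 lower in old ATlo HSCs (11.1% higher). The sodium-potassium pump and potassium cotransporters (14 genes, 81 peaks), which are used by nearly every cell, had 4 higher and 4 lower calls in old AThi (4.94% each) and 2 higher and 3 lower in old ATlo HSCs (2.47% higher), beside 7.42% higher and 2.69% lower of all peaks in old AThi HSCs and 6.75% higher in old ATlo HSCs. No list was tested against another.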

How the data were processed

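The deposited files are 3 tables, each a comparison made by the authors over 1 set of 94410 peaks, and they hold 0 columns of values per library, so nothing was refitted. ChIPseeker, DESeq2, featureCounts, MACS2, BWA, cutadapt and Trim Galore are named, with no order or role, in the submitters' processing notes, which also name both GRCm38 and mm39. Parameters, and whether reads were shifted for the transposase, are not given in the sources used here. Coordinates are those of the files (mm39, 1-based). Per the file headers, the authors deposited for each peak a mean normalised read count over the libraries (a signal), a log2 fold change with its SE on the log2 scale, a Wald statistic (a score), a p-value and a Benjamini-Hochberg adjusted p-value from DESeq2. Depth per library is not given in the sources used here, so the precision rests on the authors' SE.

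Kcn peaks were found by symbol, with 20791 of 20810 gene identifiers matched to RefSeq names, and 95% intervals were computed as the normal interval from the SE. The adjusted p was missing at 1831 peaks, 3 of them Kcn peaks, which counted as not called. Implied group means came from the mean level and the log2 changes with 3, 3 and 5 libraries. Named peaks were, per comparison with young HSCs, the 12 higher and 8 lower calls with the smallest p, the 5 smallest p each way between the old fractions, the smallest p of each class, the 10 promoters with the highest mean level, the Kcnj11 and Abcc8 peaks, the gene with the most peaks, and the peaks beside the threshold. Some genes that the rule picks are not reported here. Peaks named outside this rule were chosen after their values were seen, among them those of Kcnd2, Kcna1, Kcna6, Kcnj10, Kcnt2, Kcnh2, Kcnh8, Kcnma1, Kcnn2, Dpp6 and Dpp10. The members, gene lists, markers and motifs were chosen with earlier results of these data known. Alternatives were a threshold of 0.01, adjustment over every peak, a minimum level of 10, at least a 2-fold change, scaling to the strongest promoters, and peaks within 50 kb or inside the gene. Python 3.11.15, numpy 2.4.6, pandas 2.3.3, scipy 1.17.1 and matplotlib 3.10.9 were used. The adjustment, the implied group means and a shift of scaling were tested on simulated data, and the counting of peaks was not.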

Additional observations from a re-analysis of the deposited data

How the results depend on the processing

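No paired analysis was possible because the files hold no value per library, and for the same reason leaving out each library could not be run. Higher calls at Kcn peaks stayed within 1.5 times of 74 in old AThi HSCs under every alternative run. In old ATlo HSCs the 69 higher calls became 118 with the strongest promoters scaled to a median of 0. The 5 lower calls in old AThi HSCs became 2 at a threshold of 0.01, where lower calls over all peaks went from 2539 to 864. At that threshold higher calls in old AThi HSCs became 50 for Kcn peaks and went from 7004 to 4758 over all peaks. In old ATlo HSCs the 5 lower calls became 2 at 0.01, 2 at 2-fold or more, 3 within 50 kb or inside the gene, and 0 under the scaling. The scaling adds a constant to every log2 change, so it raised the median Kcn change to 0.34 in old AThi and 0.43 in old ATlo HSCs, with 0.17 and 0.27 for all peaks. It turned the sign of changes near 0. In old AThi against young HSCs the start-site values became 0.22 at Kcnj2, 0.18 at Kcng3, 0.19 at Kcnip3, 0.21 at Kcnh2 and 0.0770 at Kcnq1ot1, and Kcnk10 at 1.92 kb became 0.0325. In old ATlo against young HSCs they became 0.21 at Kcnq5, 0.0635 at Kcnj2, 0.18 at Kcng3, 0.17 at Kcnh2, 0.26 at Kcnj11 and 0.0512 at Kcnq1ot1, with 0.11 at Kcnk10, 0.26 at Kcnip3 -1.31 kb and 0.21 at the Kcnk13 peak in Tdp1. Between the old fractions it gave -0.0241 at Kcnc2, -0.0889 at Kcnk10, -0.0670 at Kcng1 -114.8 kb and -0.0467 at the Kcnj11 start. Under the scaling Kcnip3 -1.31 kb and Kcnj11 at -30.1 and -33.2 kb came to pass in old AThi HSCs, and the Kcnma1 start and Kcnj11 -33.2 kb in old ATlo HSCs. With the adjustment over every peak the Kcna5 start-site peak in old ATlo HSCs had an adjusted p of 0.0505 and was no longer called.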
